A study of Mus musculus with 22 samples.

Results

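The early neural genes described here are 9 genes, Sox1, Pax6, Zic1, Irx3, Hes5, Nes, Ncam1, Map2 and Tubb3, taken by symbol from the 52535 gene rows of the RNA-seq count tables. They encode transcription factors of the neural plate, a Notch target, and structural and adhesion proteins of neural progenitors and neurons. The RNA came from the mouse embryonic stem cell line E14, sampled 1 day after LIF and the MEK and GSK inhibitors of the growth medium were withdrawn and 2 µM retinoic acid was added. There were 12 libraries: 3 of unedited cells (WT), 3 of cells lacking the element E1 (E1-KO), 3 of cells lacking the element E2 (E2-KO) and 3 of D-KO cells, which the labels do not spell out and which are read here as lacking both elements. All 12 therefore shared the line, the medium change and the retinoic acid, and no library without retinoic acid was analysed here. The enhancers are studied in this series for their action on HoxB expression and on the first steps of differentiation. Whether each deleted genotype was 1 clone, and whether its replicates came from separate cultures, is not stated in the sources, and p-values here measure only the spread between these libraries.

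In the embryo, ectoderm that escapes BMP signalling becomes neural plate, and Sox1 is among the earliest genes restricted to it. Pax6, Irx3 and Zic1 then mark territories of the plate and neural tube, Notch signalling through Hes genes holds cells as progenitors, and Nes, Ncam1, Map2 and Tubb3 belong to the cytoskeleton and surface of progenitors and young neurons. Retinoic acid drives embryonic stem cells towards neural fates over several days, so a culture at 1 day stands at the start of that course.

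Depth ran from 9101547 to 13007735 gene-assigned reads per library, and 7 of the 9 genes passed the filter on low counts, while Zic1 and Hes5 did not. Replicates of WT differed from each other far more than those of any deleted genotype. Mitochondrial genes took 3.50%, 1.94% and 5.88% of counted reads in the WT replicates, 1.36% to 1.48% under E1 deletion, 1.63% to 1.81% under E2 deletion and 2.53% to 2.69% in D-KO, and the part of this in the results was not tested. Per gene, chi-square between WT pairs was 38.9 to 77.8, and between pairs of any other genotype 2.20 to 3.99. Expression relative to the mean of the libraries also followed GC content differently: across genes, Spearman's rho was -0.58 for WT replicate 1, 0.16 for replicate 2 and -0.44 for replicate 3. For the single deletions rho was 0.26 to 0.45, and for D-KO -0.11 to -0.02. Results against WT are therefore also given with WT replicate 2 as the only WT library, and after removal of GC content and length trends, where these end a call or move a value by over 1.5 times. Stem cell genes were expressed in every genotype. The 10 listed, among them Pou5f1 and Nanog, summed to 3121 to 5246 CPM (read counts scaled to a common library size, TMM-normalised) in WT. The sum was 7083 to 7446 in E1-KO cells, 6449 to 6959 in E2-KO cells and 5274 to 5486 in D-KO.

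Positions are those of GENCODE M21 on GRCm38. Sox1 lies on the plus strand at chr8:12395295-12400126, Pax6 on the plus strand at chr2:105668900-105697364, Zic1 on the minus strand at chr9:91358058-91365810 and Irx3 on the minus strand at chr8:91798525-91802067. Hes5 lies on the plus strand at chr4:154960923-154962371, Nes on the plus strand at chr3:87971078-87980451, Ncam1 on the minus strand at chr9:49502136-49798925, Map2 on the plus strand at chr1:66175273-66442583 and Tubb3 on the plus strand at chr8:123411424-123422015. All 9 are protein-coding genes, and none lies on chromosome 11, which carries HoxB. Sox1, Irx3 and Tubb3 share chromosome 8, where the median log2 fold change of 742 tested genes was above that of all genes by 0.08 in E1-KO cells, 0.08 in E2-KO and 0.07 in D-KO against WT.

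Promoter sequences (RefSeq, GRCm38.p6) matched 8 of the 9 genes. The 3 shown are those of the gene that fell most (Pax6), the gene that rose in each comparison with WT (Tubb3), and the Notch target that was almost silent (Hes5). Each is the stretch before the annotated start, 5′ to 3′ on the plus strand, cut where a GENCODE exon begins. Capitals mark matches to the RBPJ core TGGGAA or the SOX letters ACAAAG on either strand.
Pax6, chr2:105668646-105668895: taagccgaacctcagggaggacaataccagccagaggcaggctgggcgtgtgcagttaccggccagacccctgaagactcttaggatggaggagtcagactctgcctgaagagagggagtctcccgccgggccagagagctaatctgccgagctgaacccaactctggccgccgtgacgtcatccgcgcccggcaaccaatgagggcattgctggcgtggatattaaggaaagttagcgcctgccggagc
Tubb3, chr8:123411303-123411423: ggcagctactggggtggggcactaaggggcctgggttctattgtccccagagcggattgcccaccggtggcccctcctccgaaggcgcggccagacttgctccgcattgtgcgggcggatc
Hes5, chr4:154960673-154960922: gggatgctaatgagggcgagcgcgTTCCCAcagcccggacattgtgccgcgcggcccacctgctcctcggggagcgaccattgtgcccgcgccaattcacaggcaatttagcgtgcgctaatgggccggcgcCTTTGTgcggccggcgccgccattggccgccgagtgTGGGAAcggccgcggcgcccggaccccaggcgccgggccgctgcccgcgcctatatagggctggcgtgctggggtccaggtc
RBPJ is the DNA-binding partner of activated Notch, and Hes5 is one of its best-known targets. The 250 bases before the Hes5 start held the RBPJ core at 226 and at 82 bases before the start and the SOX letters at 118. The Irx3 window and that of the other Pax6 promoter begin inside a GENCODE exon of their gene. The former held the RBPJ core at 82 bases before its RefSeq start, and the latter the SOX letters at 154. Neither these letters nor the E-box CAGCTG nor the retinoid receptor half-site AGGTCA were found in the printed Pax6 window or in the 250 bases before the RefSeq starts of Sox1, Nes, Zic1, Map2 and Tubb3. Searched in both strands, with motifs allowed to overlap, TGGGAA was in 21.6%, CAGCTG in 13%, AGGTCA in 14.0% and ACAAAG in 16.5% of 32851 promoters of that length.

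Per length of exon, with all annotated exons of a gene merged, the genes spanned a wide range in WT. Tubb3 stood far above the rest at 13.3 ± 4.30 CPM per kb (SD, n = 3). Sox1 followed at 1.43 ± 0.788, Ncam1 at 1.36 ± 0.759, Nes at 1.09 ± 0.299 and Irx3 at 0.687 ± 0.153 CPM per kb, and each of these overlapped its neighbour in the order. Pax6 at 0.332 ± 0.0867, Map2 at 0.139 ± 0.0322 and Zic1 at 0.0770 ± 0.0139 CPM per kb each lay apart from their neighbours, except that Zic1 overlapped Hes5 (0.0252 ± 0.0436). Merged exons measure 11694 bases for Pax6 and 2762 for Irx3, while their longest transcripts have 4427 and 2748. Ncam1 has 8664 merged bases and 6564 in its longest transcript, and Map2 has 16449 and 6258. The places of Pax6 and Ncam1 in this order, and the gaps of Pax6 and Map2 to their neighbours, depend on the length used. In D-KO the level of Nes, at 2.34 ± 0.610 CPM per kb, ranked next to that of Tubb3 (31.9 ± 3.43), with Sox1 at 1.70 ± 0.448, and the libraries of Nes and Sox1 overlapped.

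**Figure D1:**
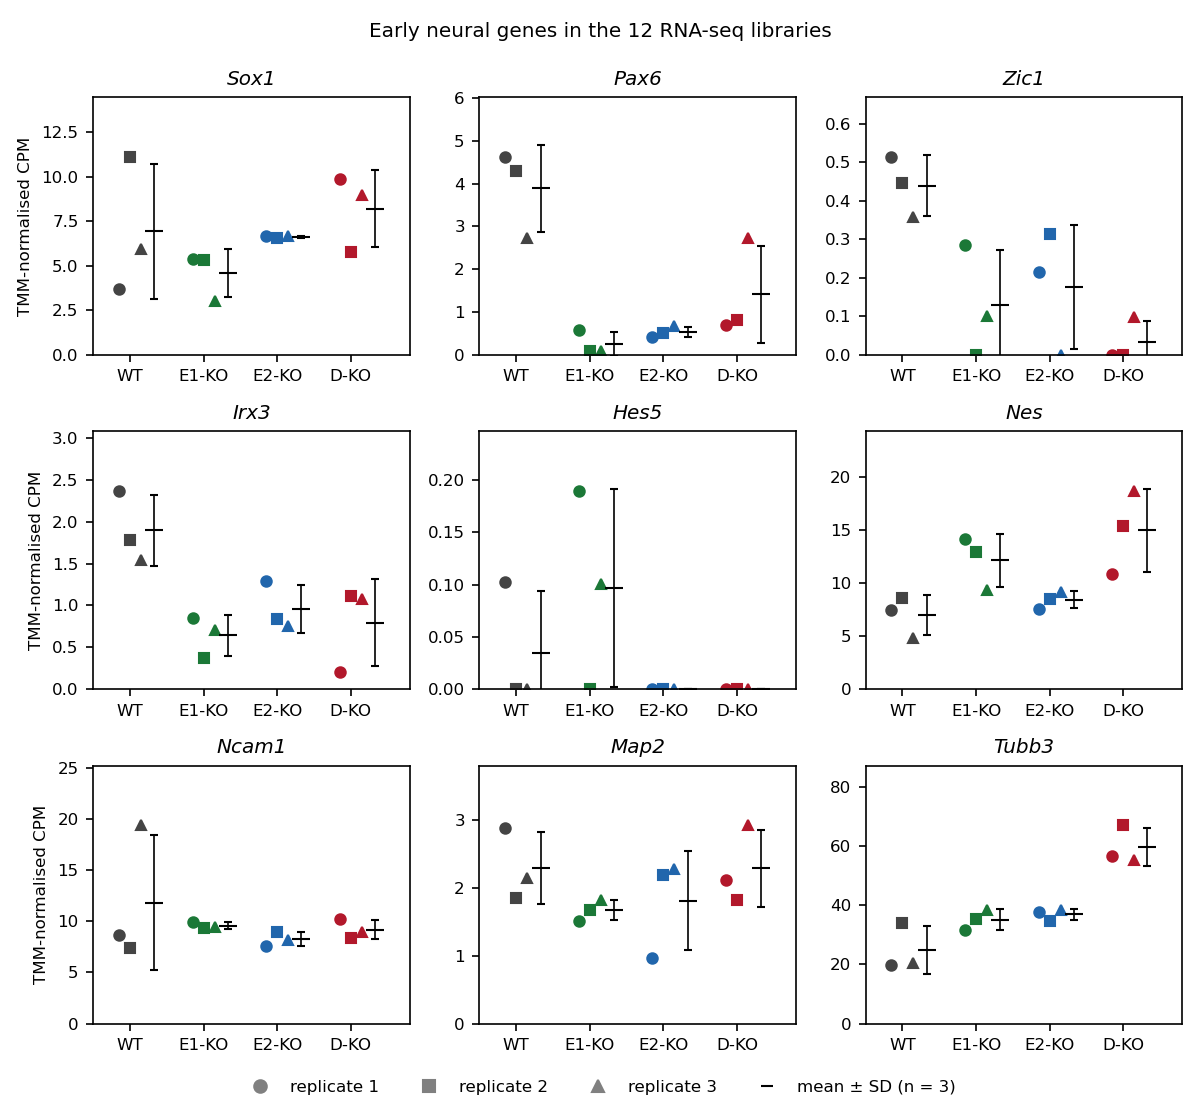
Level of each early neural gene in the 12 libraries, as TMM-normalised CPM on linear axes starting at 0, with marker shapes for replicate numbers and bars for the mean ± SD of 3 libraries. Pax6 was highest in WT (2.73 to 4.63 CPM), D-KO replicate 3 (2.73) stood above the other deleted libraries, and Tubb3 was highest in D-KO (55.3 to 67.0).

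Among the transcription factors, Pax6 showed the deepest fall. It encodes a paired-box homeodomain protein of the neural tube, forebrain and eye. Its level was 4.63, 4.30 and 2.73 CPM in the WT libraries, 0.569, 0.0930 and 0.101 in E1-KO cells, 0.429, 0.522 and 0.664 in E2-KO, and 0.706, 0.809 and 2.73 in D-KO. Every deleted library lay below every WT library, though D-KO replicate 3 was level with WT replicate 3 to the digits shown. The counts behind these levels were small, 126 in WT, 8 in E1-KO cells, 16 in E2-KO and 43 in D-KO, and 28 of the last 43 came from replicate 3. Pax6 fell in E1-KO (log2 fold change -3.93 ± 0.74 SE, edgeR adjusted p = 0.000436) and in E2-KO (-2.85 ± 0.61, adjusted p = 0.00202). Both calls held in all 21 alternative settings run, with values of -5.33 to -3.52 in E1-KO and -3.05 to -2.71 in E2-KO. With WT replicate 2 alone they were -4.06 and -2.99.

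In D-KO the Pax6 fall was smaller and just past the threshold (-1.46 ± 0.50, adjusted p = 0.0497). It was called in 8 of 21 alternatives, over which the value ran from -2.36, without D-KO replicate 3, to -1.13, without D-KO replicate 1. Pax6 was higher in D-KO than in E1-KO (2.47 ± 0.77, adjusted p = 0.0299). This rested partly on D-KO replicate 3, without which the difference was 1.57 (adjusted p = 0.191). It was lost too without E1-KO replicate 2 (2.06, adjusted p = 0.115) or replicate 3 (2.11, adjusted p = 0.114), and without E1-KO replicate 1 it was 3.88 (adjusted p = 0.0231). Against E2-KO the D-KO libraries did not overlap (0.706 to 2.73 against 0.429 to 0.664 CPM), yet the difference of 1.39 ± 0.64 did not pass (adjusted p = 0.22). The interaction of both deletions, D-KO minus E1-KO minus E2-KO plus WT on the log2 scale, was 5.33 ± 0.98 for Pax6 (adjusted p = 0.000668), and it was called in each of 20 alternatives (4.42 to 6.73). The level in D-KO was thus above the sum of the separate changes. That sum would put Pax6 in D-KO below 0.0998 CPM, the level of 3 counts over the group. A positive sign was therefore nearly fixed in advance. Of the 7 genes tested, Pax6 was the only gene whose interaction passed, where 35.2% of all tested genes did, 18.1% with a positive and 17.1% with a negative value. With GC and length trends removed Sox1, Tubb3 and Irx3 passed as well.

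Irx3, an Iroquois homeodomain factor of the caudal neural plate and spinal cord that retinoic acid is known to favour, was also lower without the elements. Its level was 2.37, 1.78 and 1.54 CPM in WT, 0.853, 0.372 and 0.706 in E1-KO cells, 1.29, 0.834 and 0.759 in E2-KO, and 0.202, 1.11 and 1.07 in D-KO. No deleted library reached the lowest WT library. The fall was called in E1-KO (-1.56 ± 0.52, adjusted p = 0.0293), while the differences in E2-KO (-0.99 ± 0.49, adjusted p = 0.127) and D-KO (-1.25 ± 0.50, adjusted p = 0.0849) did not pass. The E1-KO call held in 14 of 21 alternatives. It was lost, among others, without WT replicate 1 (-1.37), without any of the E1-KO libraries (-1.83 to -1.28) and with WT replicate 2 alone (-1.46). With GC and length trends removed the value was -2.24 in E1-KO, and both other differences passed, at -1.76 in E2-KO and -1.73 in D-KO. The antisense gene Irx3os shares 124 exon bases with Irx3 and had 33 counts in WT, 4 in E1-KO cells, 2 in E2-KO and 6 in D-KO, where Irx3 had 60, 20, 28 and 24. The strand setting of the counting is not given, so reads of both genes cannot be told apart over those bases.

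Sox1, an HMG-box factor of neural plate and neural progenitor cells, varied too much in WT to place the deletions. Its level was 3.70, 11.1 and 5.94 CPM in WT, 5.41, 5.30 and 3.02 in E1-KO cells, 6.65, 6.57 and 6.64 in E2-KO, and 9.89, 5.77 and 8.96 in D-KO. WT alone spanned nearly the whole range of the 12 libraries, while the E2-KO libraries were nearly equal (SD 0.0418 CPM). No comparison with WT passed: -0.62 ± 0.35 in E1-KO (adjusted p = 0.183), -0.09 ± 0.34 in E2-KO (adjusted p = 0.858) and 0.22 ± 0.34 in D-KO (adjusted p = 0.676). The value turned on the WT libraries. In E1-KO it was -0.91 without WT replicate 1 (adjusted p = 0.0492) and -0.06 without WT replicate 2. With WT replicate 2 alone, the highest WT library for Sox1, it was -1.26. In D-KO it was -0.08 without WT replicate 1 and 0.78 without WT replicate 2, where it passed (adjusted p = 0.0485). All D-KO libraries lay above all E1-KO libraries, and this difference of 0.84 ± 0.35 did not pass over all genes (adjusted p = 0.114), but did in 6 of 21 alternatives, among them GC and length trends removed (1.02).

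Zic1, a zinc-finger factor of the dorsal neural tube, and Hes5, the Notch-driven repressor of neurogenesis, were near the limit of detection. Zic1 had 5, 6 and 3 counts in WT, 3, 0 and 1 in E1-KO cells, 2, 3 and 0 in E2-KO, and 0, 0 and 1 in D-KO. The WT level of Zic1 was 3.46 times that in E1-KO (95% exact counting interval 1.09 to 14.4), 2.61 times that in E2-KO (0.888 to 9.25) and 13.3 times that in D-KO (2.02 to 563). These intervals cover counting error only. Over replicates, in the edgeR fit with no filter on low counts, Zic1 did not pass in E1-KO (adjusted p = 0.395), E2-KO (0.541) or D-KO (0.123). Hes5 had 1 count over the WT libraries, 3 over E1-KO, 0 over E2-KO and 0 over D-KO. No fold is given for Hes5, since 3 counts over a group correspond to 0.0949 CPM in WT, 0.0961 in E1-KO cells, 0.102 in E2-KO and 0.0998 in D-KO, and no group held more than 3 counts. Zic1 shares 60 exon bases with Zic4 (2 counts in WT) and Hes5 shares 433 with Gm20421 (1 count in WT) on the opposite strand.

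Of the structural genes, Tubb3 and Nes rose and Ncam1 and Map2 did not pass. Tubb3, the class III beta tubulin of neurons, was the most abundant. Its level was 19.9, 34.0 and 20.4 CPM in WT, 31.5, 35.3 and 38.4 in E1-KO cells, 37.6, 34.7 and 38.2 in E2-KO, and 56.5, 67.0 and 55.3 in D-KO. The D-KO libraries lay above all others, those of E2-KO lay just above WT replicate 2, and E1-KO overlapped WT. Tubb3 rose in D-KO (1.26 ± 0.18, adjusted p = 0.000234), and that call held in all 21 alternatives (0.81 to 1.57). The value was 0.96 with GC and length trends removed and 0.81 with WT replicate 2 alone. It was higher in D-KO than in E1-KO (0.77 ± 0.18, adjusted p = 0.0109) and than in E2-KO (0.69 ± 0.18, adjusted p = 0.0395). These calls held in 19 and 11 of 21 alternatives, with ranges of 0.66 to 0.89 and 0.60 to 0.91. Without E1-KO replicate 1 or D-KO replicate 2 the Tubb3 difference from E1-KO no longer passed (0.69 and 0.66). The difference from E2-KO lost its call when any single library of the deleted genotypes was left out (0.60 to 0.75, adjusted p = 0.0601 to 0.170) and with library totals (0.63, adjusted p = 0.0961).

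The Tubb3 rises in the single deletions were smaller and depended on the WT libraries. They were 0.49 ± 0.18 in E1-KO (adjusted p = 0.0477) and 0.56 ± 0.18 in E2-KO (adjusted p = 0.0260). After removal of GC content and length trends these became 0.08 and 0.06, and with WT replicate 2 alone 0.05 and 0.12, all short of the threshold. Tubb3 transcripts are rich in GC (57.9%), and the WT libraries differed from each other in how expression followed GC content. The part of this in the Tubb3 differences was not tested further. E2-KO and E1-KO did not differ detectably in Tubb3 (0.07, 95% interval -0.28 to 0.42).

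Nes encodes nestin, the intermediate filament of neural progenitors. Its level was 7.51, 8.60 and 4.87 CPM in WT, 14.1, 12.9 and 9.38 in E1-KO cells, 7.61, 8.55 and 9.20 in E2-KO, and 10.9, 15.4 and 18.7 in D-KO. The E1-KO and D-KO libraries lay above all WT libraries, and those of E2-KO overlapped them. Nes rose in D-KO (1.08 ± 0.24, adjusted p = 0.00544) and in E1-KO (0.78 ± 0.24, adjusted p = 0.0234), and the difference in E2-KO (0.26 ± 0.25) did not pass (adjusted p = 0.439). The D-KO call was lost in 1 of 21 alternatives, limma (1.05, adjusted p = 0.188), and the E1-KO call in 7 of 21. Those included WT replicate 3 left out (0.59), E1-KO replicate 1 or 2 left out (0.66 and 0.74), GC and length trends removed (0.52) and WT replicate 2 alone (0.51). Nes in D-KO and in E2-KO did not overlap, with a difference of 0.83 ± 0.24 (adjusted p = 0.0681) that passed in 8 of 21 alternatives. With only the libraries of D-KO and E2-KO fitted, it was 0.83 (edgeR adjusted p = 0.000201). Nes in E2-KO lay below E1-KO by a log2 difference of -0.52 ± 0.24 (adjusted p = 0.455). That difference passed in 2 of 21 alternatives, among them the fit of only the libraries compared.

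Ncam1, the neural cell adhesion molecule, and Map2, a microtubule-associated protein of dendrites, passed in no comparison. Ncam1 stood at 8.64, 7.42 and 19.4 CPM in WT, 9.30 to 9.96 in E1-KO cells, 7.61 to 8.97 in E2-KO cells and 8.40 to 10.2 in D-KO. WT replicate 3 stood far above any other library, and without it the log2 fold changes turned from -0.28 to 0.27 in E1-KO, from -0.50 to 0.04 in E2-KO and from -0.34 to 0.19 in D-KO. Map2 stood at 2.88, 1.85 and 2.14 CPM in WT, 1.52 to 1.81 in E1-KO cells, 0.965 to 2.28 in E2-KO cells and 1.82 to 2.92 in D-KO. The E1-KO libraries of Map2 lay below WT without passing (-0.45 ± 0.36, adjusted p = 0.347). The interval of the Map2 difference between D-KO and WT ran from -0.67 to 0.69. The antisense gene Gm11149 shares 417 exon bases with Ncam1 and had 103 counts in WT, 108 in E1-KO cells, 63 in E2-KO and 81 in D-KO, beside 347, 299, 243 and 276 for Ncam1.

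Counted over the group, the genes changed in both directions. In E1-KO against WT 2 of the 7 tested rose (Nes and Tubb3) and 2 fell (Pax6 and Irx3), where 34.2% of all 16765 tested genes were called, 15.7% higher and 18.5% lower. In E2-KO against WT 1 rose (Tubb3) and 1 fell (Pax6), with 35.3% of all genes called, 16.7% higher and 18.6% lower. In D-KO against WT 2 rose (Nes and Tubb3) and 1 fell (Pax6), with 22.8% called, 10.6% higher and 12.2% lower. The rises in E1-KO and E2-KO lost their calls with GC content and length trends removed, and were smaller with WT replicate 2 alone. The Pax6 call in D-KO held in a minority of the alternatives. With 7 genes tested, no excess over all genes is read from these counts. The median log2 fold change of the 7 was -0.45, -0.32 and 0.01 in E1-KO, E2-KO and D-KO, beside -0.01, 0.00 and -0.02 over all tested genes. The comparisons share the WT libraries and are not independent of each other.

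Between deletions, D-KO was higher than E1-KO in 2 of 7 genes (Pax6 and Tubb3), where 15.9% of all genes were called, 8.43% higher and 7.52% lower. D-KO was higher than E2-KO in 1 (Tubb3), where 4.48% were called, 1.84% higher and 2.64% lower. E2-KO against E1-KO gave 0 calls by edgeR among the 7, with 1 at an unadjusted p below 0.05 (Nes), 0 by DESeq2 and 0 by limma, and 0.596% of all genes called, 0.322% lower. Spread was estimated over all 12 libraries, the more variable WT included. A difference between deletions that did not pass is thus not read as absent. Libraries did not overlap for 5, 4 and 5 of the 9 genes in E1-KO, E2-KO and D-KO against WT. Zic1, which did not pass the filter on low counts, is among them in each. The shares over genes that passed the filter were 41.1%, 41% and 32.8%. Libraries did not overlap for 3 of 9 in E2-KO against E1-KO, 4 in D-KO against E1-KO and 3 in D-KO against E2-KO. The shares of tested genes were 34.7%, 54.4% and 45.8%. A change in the share of cells of a neural kind and a change in RNA per cell cannot be told apart in such bulk samples.

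**Figure D2:**
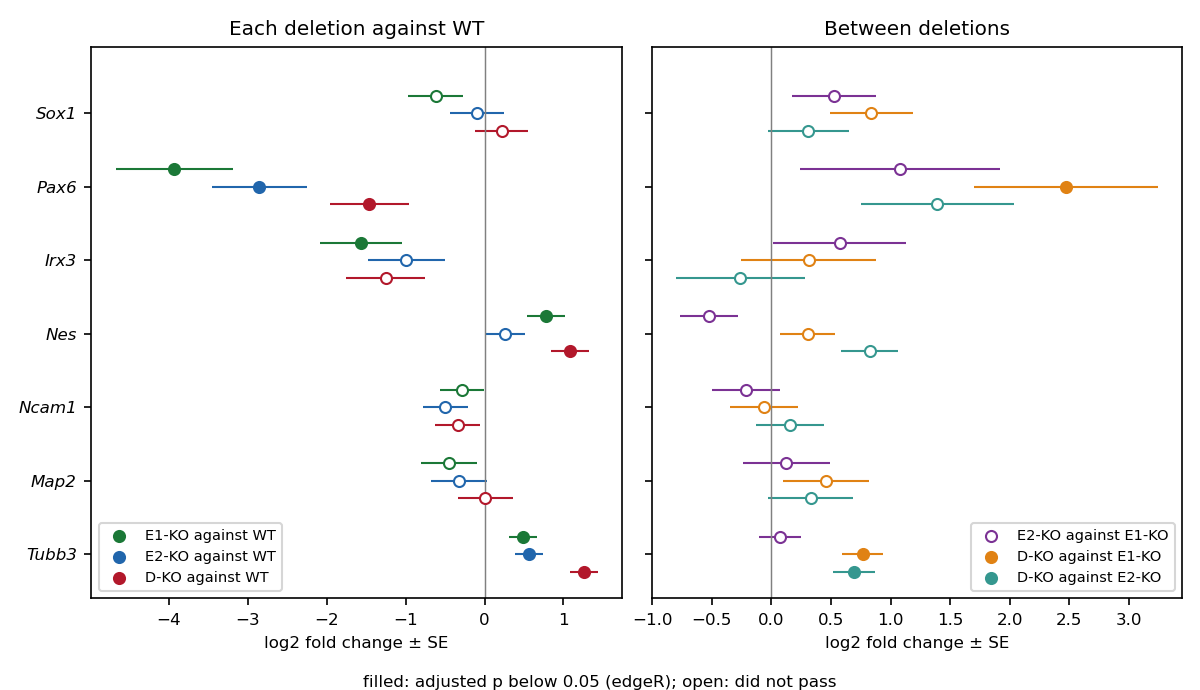
Log2 fold change ± SE of the 7 tested early neural genes, each deletion against WT on the left and the deletions against each other on the right, with filled points for an edgeR adjusted p below 0.05 and open points otherwise. Pax6 lies to the left in all 3 comparisons with WT, while Nes and Tubb3 lie to the right.

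**Figure D3:**
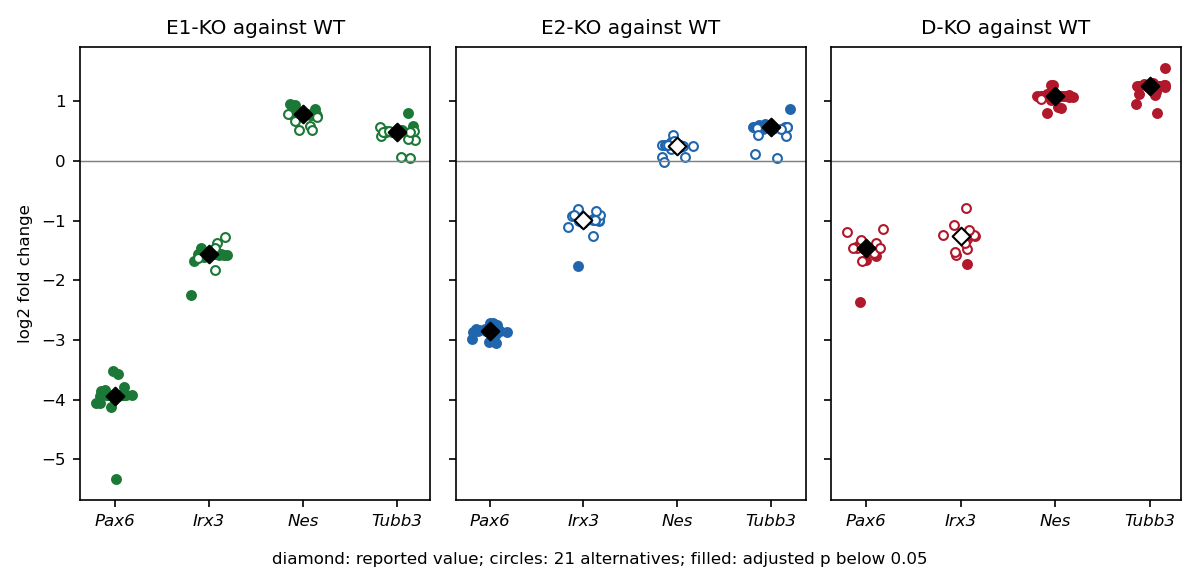
Log2 fold change against WT of Pax6, Irx3, Nes and Tubb3 under the reported setting (diamond) and 21 alternatives (circles, spread sideways for legibility), filled where the adjusted p was below 0.05. Pax6 in E1-KO and E2-KO and Tubb3 in D-KO stay filled throughout, while Tubb3 in E1-KO runs down to 0.05.

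Across the 12 libraries the levels of Nes and Tubb3 went together (Pearson r = 0.73 of log2 CPM), as did those of Pax6 and Irx3 (r = 0.71). Tubb3 and Irx3 went apart (r = -0.52). These are descriptions over libraries that share genotype. Among 12123 tested genes of at least moderate level, Pax6 was most like Rasgrp3 (r = 0.97) and Trib2 (r = 0.96). Rasgrp3, an activator of Ras-type GTPases, stood at 9.86 CPM in WT, then 1.03, 1.72 and 3.61 in the deletions E1, E2 and D, and Trib2, a pseudokinase, at 30.5, 4.15, 7.55 and 14.3. Tubb3 was most like Gpatch3 (r = 0.97) and Prpf19 (r = 0.96), a splicing factor that stood at 256 CPM in WT and 347 in D-KO. Irx3 was most like Vil1 (r = 0.91) and Nr2c1 (r = 0.89), Nes like Zc3h18 (r = 0.90) and Dnmt1 (r = 0.90), and Sox1 like Ccdc92 (r = 0.91) and Phb (r = 0.90). Ncam1 was most like Sptan1 (r = 0.95) and Exoc4 (r = 0.95), and Map2 like Rnf214 (r = 0.88) and Enox2 (r = 0.86). The level of Ncam1 in WT replicate 3 (19.4 CPM) stood far above that in any other library. Its r values may rest largely on that library, which was not tested.

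Of 34 other transcription factors of the neural plate, 19 were tested, and more fell than rose. In E1-KO 12 fell and 2 rose (median log2 fold change -0.64), in E2-KO 8 fell and 1 rose (-0.47), and in D-KO 7 fell and 2 rose (-0.30). Over all tested genes 18.5% fell and 15.7% rose in the first comparison, 18.6% and 16.7% in the second, and 12.2% and 10.6% in the third. Over the 21 alternatives, added for these lists after their values were seen, the falls numbered 7 to 15, 5 to 13 and 4 to 11. Sox4, an HMG-box factor of neural progenitors and young neurons, fell from 63.1 ± 7.10 CPM in WT to 18.7 ± 2.51 in E1-KO cells, 27.3 ± 2.44 in E2-KO and 28.3 ± 1.59 in D-KO. Its relative Sox11 fell from 15.4 ± 0.903 CPM to 2.75 ± 0.116, 3.23 ± 1.42 and 4.29 ± 0.518. Gli3, the transcription factor that represses Hedgehog targets, fell from 30.5 ± 9.09 CPM to 10.1 ± 0.321, 8.42 ± 1.05 and 7.36 ± 0.995. All 9 of these falls were called in each of 21 alternatives, at log2 fold changes from -2.66 to -1.09.

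Genes of the Notch pathway went both ways, with 21 of 28 tested. In E1-KO 9 rose and 4 fell (median 0.22), in E2-KO 8 rose and 4 fell (0.34), and in D-KO 5 rose and 2 fell (-0.08). Of all tested genes 34.2%, 35.3% and 22.8% were called in these comparisons, and the D-KO calls, 7 of 21, are not far from that share. The D-KO counts varied widely, at 1 to 8 higher and 0 to 9 lower over the alternatives. The receptor Notch4 rose from 14.8 ± 2.28 CPM in WT to 41.7 ± 4.51 in E1-KO cells, 41.4 ± 1.01 in E2-KO and 47.8 ± 2.61 in D-KO. Hes1, the Notch target related to Hes5, rose from 17.0 ± 1.59 CPM to 37.8 ± 1.45, 37.9 ± 1.77 and 24.6 ± 0.995. The ligand Dll1 fell in E1-KO (-1.40 ± 0.25, adjusted p = 0.000739) and E2-KO (-0.69 ± 0.24, adjusted p = 0.0361), with -0.44 ± 0.23 in D-KO (adjusted p = 0.192). Numbl, a relative of the Notch antagonist Numb, rose by 1.02, 1.08 and 0.65, and Dtx1, a ubiquitin ligase that binds Notch, by 0.72, 0.81 and 0.97 on the log2 scale. In D-KO Hes1 and Dtx1 each lost their calls in 2 of 21 alternatives. Those were limma (0.56 and 0.98) and, for Hes1, the fit of WT and D-KO alone (0.55) and, for Dtx1, GC and length trends removed (0.53).

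**Figure D4:**
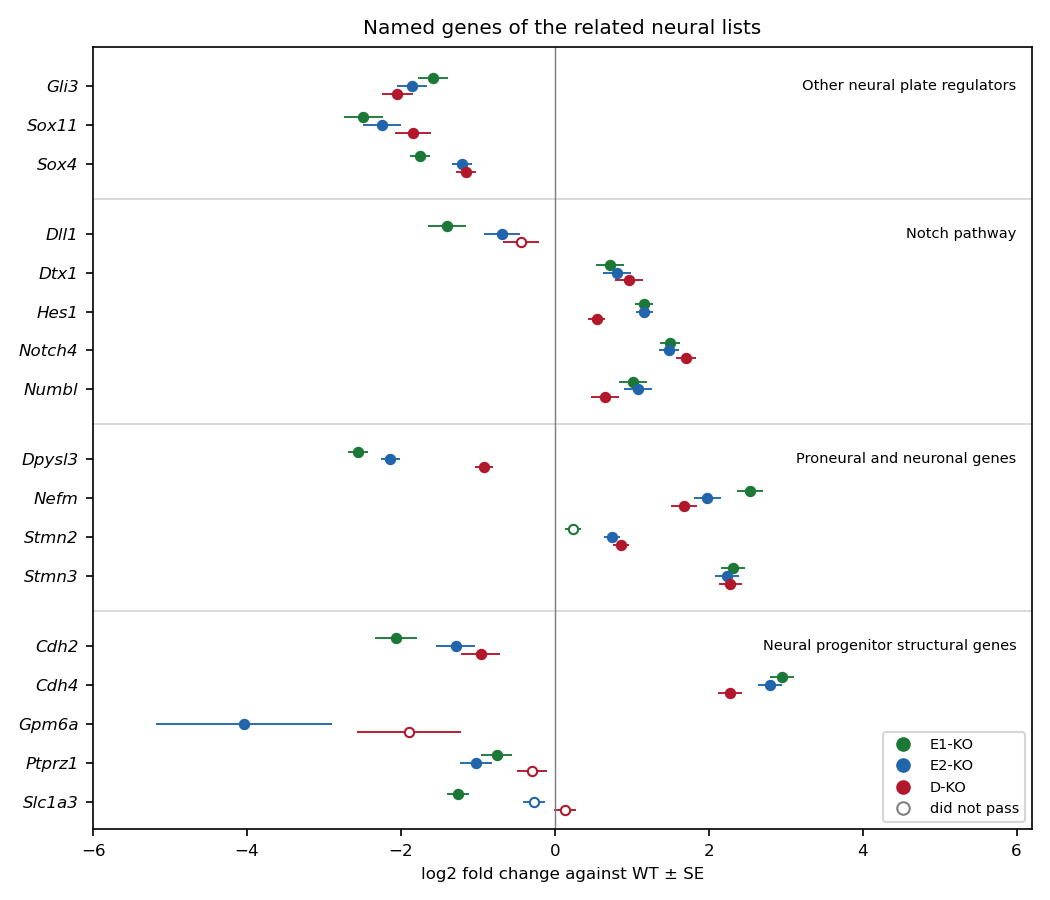
Log2 fold change ± SE against WT of the genes named from the 4 related lists, in E1-KO, E2-KO and D-KO, filled where the edgeR adjusted p was below 0.05. Gpm6a has no E1-KO point because its counts there were 0, Sox4, Sox11 and Gli3 lie to the left in all 3 genotypes, and Stmn3, Nefm and Cdh4 lie to the right.

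Proneural and neuronal genes, with 21 of 30 tested, also split. In E1-KO 5 rose and 7 fell (median -0.22), in E2-KO 5 rose and 7 fell (-0.06), and in D-KO 7 rose and 6 fell (0.27), where all tested genes had 15.7%, 16.7% and 10.6% higher and 18.5%, 18.6% and 12.2% lower. Stmn3, a microtubule-destabilising phosphoprotein of neurons, rose from 6.29 ± 1.00 CPM in WT to 31.5 ± 1.81 in E1-KO cells, 29.8 ± 3.00 in E2-KO and 30.8 ± 3.85 in D-KO. Nefm, a neurofilament subunit, rose from 5.50 ± 0.250 CPM to 31.7 ± 2.22, 21.7 ± 3.10 and 17.6 ± 3.33. Stmn2, of the same family as Stmn3, rose in D-KO from 183 ± 22.2 to 332 ± 4.77 CPM and in E2-KO to 305 ± 16, with 215 ± 13.8 in E1-KO, where the difference did not pass (adjusted p = 0.102). Dpysl3, a protein of growing axons, fell from 55.2 ± 3.84 CPM to 9.38 ± 0.868, 12.5 ± 1.07 and 29.0 ± 1.15. Over the alternatives the falls in D-KO numbered 1 to 7.

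Structural genes of neural progenitors, with 12 of 16 listed tested and Sox1ot not in the tables, were called as follows. In E1-KO 8 fell and 1 rose (median -1.05), in E2-KO 4 fell and 1 rose (-0.38), and in D-KO 1 fell and 1 rose (0.04). All tested genes had 18.5%, 18.6% and 12.2% lower and 15.7%, 16.7% and 10.6% higher. The share called in either direction was near that of all genes in E2-KO (35.3%) and D-KO (22.8%). The gene that rose in each was Cdh4, R-cadherin, from 8.44 ± 2.03 CPM in WT to 65.1 ± 7.64 in E1-KO cells, 58.6 ± 1.68 in E2-KO and 40.9 ± 1.65 in D-KO. Cdh2, N-cadherin of the neuroepithelium, fell from 10.5 ± 3.26 CPM to 2.50 ± 0.353, 4.28 ± 1.22 and 5.36 ± 0.651. The D-KO fall of Cdh2 (-0.96 ± 0.25, adjusted p = 0.0145) was called in 16 of 21 alternatives and was lost, among others, without D-KO replicate 1 (-0.97) or 3 (-0.87) and with WT replicate 2 alone (-0.54). Slc1a3, a glutamate transporter of radial glia, fell in E1-KO from 26.1 ± 4.27 to 10.9 ± 1.3 CPM. It stood at 21.7 ± 0.682 in E2-KO (adjusted p = 0.152) and 28.5 ± 1.96 in D-KO (adjusted p = 0.543), which did not pass. Ptprz1, a receptor phosphatase of glial progenitors, fell in E1-KO (-0.76 ± 0.20) and E2-KO (-1.03 ± 0.21), with -0.30 ± 0.20 in D-KO (adjusted p = 0.298). Gpm6a, a neuronal membrane glycoprotein, fell from 1.12 ± 0.0758 CPM in WT to 0 counts in every E1-KO library (adjusted p = 0.00104) and 0.0664 ± 0.0577 CPM in E2-KO (adjusted p = 0.00399). Its level of 0.302 ± 0.269 CPM in D-KO did not pass (-1.89 ± 0.67, adjusted p = 0.0522).

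Markers of other cell kinds moved with genotype too. Of the 10 stem cell genes, of which Sox2 is also on the neural plate list, 7 rose in E1-KO cells, 7 in E2-KO and 5 in D-KO, where 15.7%, 16.7% and 10.6% of all genes rose. Of 15 primitive endoderm genes 11 fell in E1-KO cells, 11 in E2-KO cells and 10 in D-KO, where 18.5%, 18.6% and 12.2% of all genes fell. On that list 2, 2 and 1 rose, Amn in each genotype (1.31, 2.08 and 1.62) and Sparc in E1-KO and E2-KO (0.27 and 0.35). The summed level of the 15 was 844 to 1105 CPM in WT, 489 to 508 in E1-KO cells, 605 to 631 in E2-KO cells and 659 to 682 in D-KO. Of 9 neural crest genes 7 were tested, and Foxd3, which stem cells also use, rose in each genotype (2.79, 2.43 and 1.67), while Twist1 fell in each (-0.90, -1.05 and -1.21). Ets1 rose in E1-KO (0.76), and the other 4 tested did not pass in any comparison with WT, Tfap2a lying below WT in each (-0.56, -0.55 and -0.97). The summed neural crest level was 22.1 to 37.9 CPM in WT, 98.9 to 103 in E1-KO cells, 75.7 to 82.4 in E2-KO cells and 45.8 to 56.9 in D-KO, with Tfap2b at 0 in all. In E2-KO and D-KO only Foxd3 of the tested crest genes was called higher. The sum is thus not read as a rise of neural crest. Markers of primitive streak and mesoderm summed to 25.2 to 41.3 CPM, of surface ectoderm to 60.5 to 83.5 and of mesenchyme to 18.8 to 33.7 over all libraries, with Lum at 0 in all 12. Among their tested genes Hand1 rose in each deletion (1.08, 1.70 and 1.27), as did Tfap2c (1.59, 1.14 and 0.59), and Thy1 rose in E1-KO and E2-KO (1.05 and 1.25). Epcam fell in E1-KO and E2-KO (-0.72 and -0.36), and in D-KO Eomes (-0.84), Gata3 (-0.96) and Pdgfrb (-0.70) fell. The part of these cell kinds in the early neural differences was not tested.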

How the data were processed

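The 12 RNA-seq libraries, 3 per genotype by the labels, were analysed; 4C and ChIP samples were not analysed here. The deposited tables hold raw read counts per gene symbol, made by the authors from reads aligned to mm10, with HISAT2 2.1.0 and HTSeq 0.9.1 listed, per the submitters' processing notes. Annotation and strand setting: not given in the sources used here. Unassigned reads, listed apart at 1.11 to 1.20 times the counted reads, entered neither library sizes nor tests.

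Tests used edgeR 4.0.16 under R 4.3.3 (filterByExpr by genotype, TMM, robust quasi-likelihood fit of all 12 libraries, no covariate), with Benjamini-Hochberg adjustment over 16765 genes and calls below 0.05. An adjusted p-value is edgeR's wherever no other tool (limma 3.58.1, DESeq2 1.42.0) is given. SEs are those of unshrunken coefficients, and 95% intervals are 1.96 SEs wide to either side; counting intervals are exact. Median tagwise dispersion was 0.0935 in WT and 0.00563 to 0.00774 in the deleted genotypes. Fitted jointly, the 12 libraries get a dispersion too low for WT and too high for the deleted genotypes. Tests against WT may therefore pass too readily, and tests between deletions too rarely. Trends in GC content and length were removed by offsets for 97.1% of tested genes. The fits were tested on simulated counts, in which each gene had the same dispersion in all 12 libraries. That test does not cover the wider spread of WT, so it does not check the comparisons with WT.

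The 9 genes and the lists were chosen with earlier results of these data known. Named genes are the 9, the 3 of each related neural list with the smallest adjusted p in each comparison with WT, and, for each of the 7 tested, the 2 with the highest Pearson r over 12 libraries (log2 CPM, prior count 2, average log2 CPM of at least 1, predicted loci left out). Exon lengths and positions come from GENCODE M21, promoters from RefSeq GRCm38.p6.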

Additional observations from a re-analysis of the deposited data

Results flagged for a closer look

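The interaction of both deletions for Pax6 was 5.33 on the log2 scale (SE 0.98, edgeR adjusted p = 0.000668). The D-KO level was thus above the sum of the separate changes. That sum lies below the level of 3 counts over D-KO (0.0998 CPM), so a positive sign was nearly fixed in advance. WT libraries enter the interaction value, so a difference from WT shared by all deleted genotypes also gives an interaction. Stmn3, at 2.31, 2.23 and 2.28 against WT in E1-KO, E2-KO and D-KO, had an interaction of -2.27. The part of a shared difference in the Pax6 value was not tested. The Pax6 value rests on 126 WT counts, 8 E1-KO counts, 16 E2-KO counts and 43 D-KO counts. Replicate 3 gave 28 of the last, and without it the interaction was 4.42 (adjusted p = 0.00279). D-KO is read here as lacking both elements, and the labels do not say so.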

How the results depend on the processing

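Of 1016 values of single early neural genes under the alternatives, 886 kept their direction and side of the threshold, 67 lost the call, 31 gained one and 32 changed sign, all of them uncalled. Of 292 counts, 192 stayed within 1.5 times. The library numbers do not pair the samples: 18 correlations of same-numbered libraries ran from -0.08 to 0.08. With the replicate block the early neural genes called in D-KO against E1-KO went from 2 to 1 and Map2 in D-KO against WT was -0.0207; the all-gene counts were 5414, 5582 and 3467 against WT, and the block ended the calls of Pax6 in D-KO against WT (-1.55, adjusted p = 0.0634) and against E1-KO (2.43, adjusted p = 0.0509) and no other among these genes.

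Genes called in E1-KO, E2-KO and D-KO against WT numbered 5739, 5919 and 3824, but 3278, 3229 and 1927 by limma with weights per genotype, 2552, 2535 and 1438 with only the libraries compared, and for D-KO 6238 with WT replicate 2 alone. The early neural calls were then 1, 1 and 1 by limma, 1 and 1 in E1-KO and E2-KO with only the libraries compared, and 2 in E1-KO with WT replicate 2 alone. E2-KO against E1-KO gave 100 genes, but 415 with no filter, 250 by DESeq2, 2812 by limma, 3377 with only the libraries compared, 254 with GC and length trends removed and 3457 with WT replicate 2 alone, where, as with only the libraries compared, 1 early neural gene was called. D-KO against E1-KO gave 2674, but 7960 by limma, 8025 with only the libraries compared and 8030 with WT replicate 2 alone. D-KO against E2-KO gave 751, but 1472 with no filter, 1213 by DESeq2, 5678 by limma, 5872 with only the libraries compared, 1482 with trends removed and 6158 with WT replicate 2 alone. Its early neural calls went from 1 to 0 with library totals, 3 with WT replicate 2 alone and 2 in the others named. Interaction calls among these genes went from 1 to 4 with trends removed and 3 with WT replicate 2 alone.

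Library totals in place of TMM moved log2 fold changes by 0.11 in E1-KO against WT and by -0.18 in the interaction. Genes higher were then 3113 of 5453 in E1-KO against WT (2633 of 5739 with TMM), 978 of 2725 in D-KO against E1-KO (1414 of 2674) and 2223 of 5745 in the interaction (3040 of 5909), and Nes in the interaction was -0.11. Other changes of sign were with WT replicate 2 alone, Ncam1 at 0.38, 0.16 and 0.31 in E1-KO, E2-KO and D-KO and -0.23 in the interaction, Nes in E2-KO at -0.0199 and Sox1 in D-KO at -0.44. With trends removed they were Tubb3 in E2-KO against E1-KO at -0.0188, Ncam1 in D-KO against E1-KO at 0.0440 and Irx3 in D-KO against E2-KO at 0.0263.

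Leaving out 1 library at a time gave 3965 to 8753, 3969 to 8887 and 2413 to 7006 genes in E1-KO, E2-KO and D-KO against WT, 16 to 722 in E2-KO against E1-KO, 1174 to 4934 and 227 to 2875 in D-KO against E1-KO and E2-KO, and 4621 to 8673 in the interaction. Early neural calls ran from 1 to 4, 1 to 3, 2 to 3, 0 to 0, 1 to 3, 0 to 2 and 1 to 2 in that order. Signs changed for Ncam1 against WT (-0.54 to 0.27 in E1-KO cells, -0.75 to 0.0393 in E2-KO, -0.60 to 0.19 in D-KO), Sox1 in E2-KO (-0.39 to 0.47) and D-KO (-0.0849 to 0.78), and Map2 in D-KO (-0.20 to 0.20). They did too for Map2 (-0.0773 to 0.42) and Tubb3 (-0.000161 to 0.14) in E2-KO against E1-KO, and for Irx3 in D-KO against E1-KO (-0.0126 to 0.77) and E2-KO (-0.58 to 0.19). In the interaction they did for Nes (-0.15 to 0.23), Ncam1 (-0.11 to 0.69) and Tubb3 (-0.11 to 0.33). The cause of these changes was not tested. Counts of 8 for Pax6 in E1-KO and under 15 for Zic1 and Hes5 in every genotype limit those genes, and leaving both other WT libraries out assumes that the remaining library varies like the deleted ones.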

Other observations

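The genes below were chosen after their values were seen. Irx5, which neighbours Irx3 on chromosome 8 in the same Iroquois cluster, fell in E1-KO (log2 fold change -1.73 ± 0.61 SE, edgeR adjusted p = 0.0360), E2-KO (-1.93 ± 0.64, adjusted p = 0.0252) and D-KO (-2.30 ± 0.67, adjusted p = 0.0187). Irx2 fell in D-KO (-1.05 ± 0.32, adjusted p = 0.0268), with -0.63 ± 0.30 in E1-KO (adjusted p = 0.120) and -0.82 ± 0.31 in E2-KO (adjusted p = 0.0514). Within the SoxB1 group, to which Sox1 belongs, Sox2 rose (1.23, 1.17 and 0.88 in E1-KO, E2-KO and D-KO) and Sox3 fell (-2.98, -2.01 and -1.32). Both are also genes of pluripotent cells. Otx2, a forebrain and epiblast factor, rose in D-KO (1.24 ± 0.39, adjusted p = 0.0329), with 0.20 ± 0.41 in E1-KO and 0.24 ± 0.41 in E2-KO, which did not pass. Among the relatives of Zic1, Zic5 fell in E1-KO (-0.57 ± 0.13) and E2-KO (-0.53 ± 0.13), with 0.17 ± 0.13 in D-KO (adjusted p = 0.387).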
